A study of Mus musculus with 20 samples.

Results

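The 10 genes described here make bile acids in the liver or receive the signal that restrains their synthesis. They are Cyp7a1, Cyp8b1, Cyp27a1, Cyp7b1, Hsd3b7, Akr1d1, Slc27a5, Baat, Fgfr4 and Klb, taken by gene symbol from a table of 38924 genes, in which each of the 10 symbols had 1 row. Values are FPKM, fragments scaled to the gene's length in kilobases and to the fragments assigned to genes in that library, so that levels of different genes can be set side by side within a liver. Between livers they carry no further normalization, so a gain in some genes lowers the FPKM of others. All 10 genes passed the filter on low values (FPKM above 0.5 in at least 5 of the 20 libraries), which kept 14524 genes for testing.

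RNA came from the livers of 20 male mice, 1 library per mouse. WT mice were C57BL/6J, and TSP-1 null mice were a knockout line of Thbs1, the gene of thrombospondin-1, on that background, bought separately. Mice were bought at 5 weeks of age, acclimated for 1 week and fed for 12 weeks with a control diet or with CDAHFD. CDAHFD is a high fat diet with defined amino acids, limited methionine and no choline, used to produce steatohepatitis and fibrosis. The groups of 5 mice were WT on control diet (NDWT), TSP-1 null on control diet (NDKO), WT on CDAHFD (HFWT) and TSP-1 null on CDAHFD (HFKO). Libraries held 15641545 to 23276333 fragments assigned to genes (median 18950484), and the ranges of the 4 groups overlapped. The time of day of collection is not given in the sources used here.

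Thbs1, the targeted gene, did not follow the labels. It lay at 0.058 to 0.326 FPKM in NDWT and at 0.986 to 1.90 in NDKO, so it was higher in the control diet libraries labelled null, and at 3.46 to 6.10 in HFWT and 3.05 to 4.40 in HFKO. RNA fragments do not show whether protein is made. Both mitochondrial tRNA genes mt-Tg and mt-Tr had 0 fragments in all 10 libraries labelled null, on both diets. In the 10 labelled WT they had 1 to 22 fragments, near the floor. These 2 genes were chosen after their values were seen, so the separation is a description and not a test of the labels. Directions by genotype below follow the labels.

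Bile acids are made from cholesterol in hepatocytes. The classical route starts with CYP7A1, the rate-limiting enzyme, and the alternative route with CYP27A1, a mitochondrial sterol hydroxylase, followed by CYP7B1, an oxysterol hydroxylase. CYP8B1 adds the hydroxyl group that makes cholic acid and so sets its share against the muricholic and chenodeoxycholic acids. HSD3B7 and AKR1D1 modify the steroid rings, SLC27A5 joins bile acids to coenzyme A and BAAT then joins them to taurine or glycine. Bile acids returning from the intestine restrain this synthesis: the receptor FXR (Nr1h4) raises SHP (Nr0b2) in hepatocytes and, in the ileum, the hormone FGF15, which acts on hepatocytes through the receptor FGFR4 and its co-receptor beta-Klotho (Klb).

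On the control diet, the members spanned a wide range of levels in WT livers. Cyp8b1 (458 ± 98.3 FPKM, mean ± SD, n = 5 in this and every group) and Slc27a5 (416 ± 35.4) stood highest, and their ranges overlapped. Cyp27a1 (183 ± 23.4) came next, without overlap with the genes above or below it, then Cyp7b1 (121 ± 24.2), Baat (104 ± 8.32) and Hsd3b7 (82.3 ± 8.40). The range of Cyp7b1 overlapped those of Baat and Hsd3b7, which did not overlap each other. Akr1d1 (30.3 ± 3.21) was apart from these. Fgfr4 (12.7 ± 1.65), Klb (11.5 ± 1.48) and Cyp7a1 (10.1 ± 8.05) were the lowest of the 10, with ranges that overlapped.

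The order was different in HFKO livers. Slc27a5 (218 ± 23.0), Cyp8b1 (168 ± 26.6) and Cyp27a1 (158 ± 21.1) led it, each overlapping the next. Cyp7a1 (29.0 ± 17.0) ranked above Cyp7b1 (11.5 ± 3.94), the reverse of their order in NDWT. The 10 genes together summed to 1428 ± 116.6 FPKM in control diet WT livers and 1840 ± 32.0 in NDKO. On CDAHFD the sum was 748 ± 37.4 in WT and 808 ± 94.5 in null livers, below both control diet groups.

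**Figure D1:**
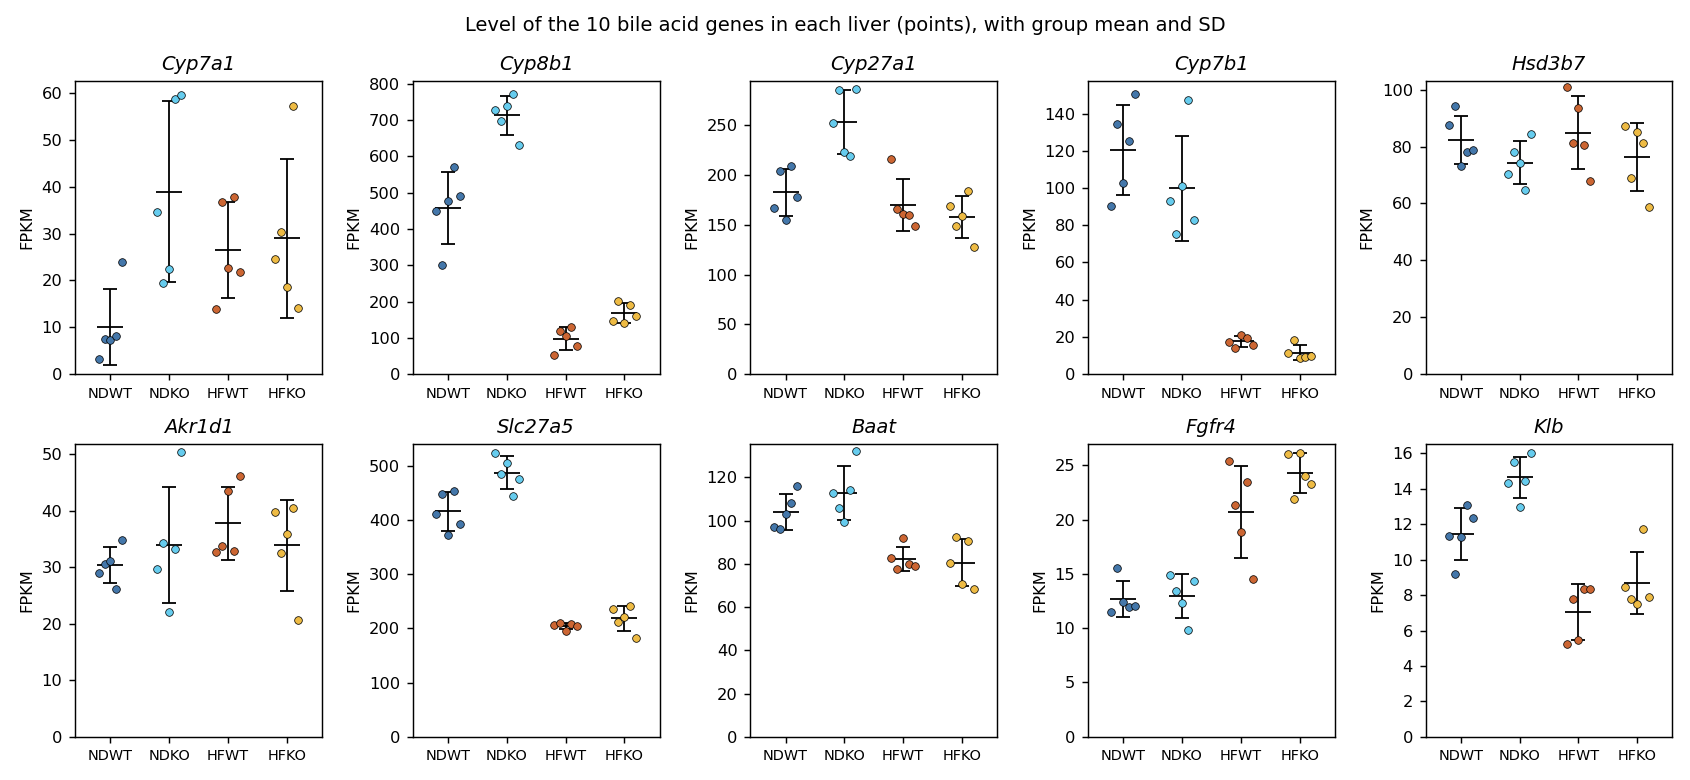
FPKM (vertical axis, starting at 0 in each panel) of the 10 genes in each of the 4 groups. Points are single livers and bars are the mean with its SD, n = 5. Cyp8b1, Slc27a5 and Cyp7b1 lie lower in every CDAHFD liver than in any control diet liver of the same genotype, while Cyp7a1 has 1 NDWT liver at 24.1 FPKM and the other 4 between 3.28 and 8.22.

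The first question was how CDAHFD altered these genes in WT and in TSP-1 null livers. In WT livers the diet lowered Cyp7b1, Cyp8b1, Slc27a5 and Klb and raised Cyp7a1 and Fgfr4. In TSP-1 null livers it lowered the first 4 and Cyp27a1, and raised Fgfr4. A gene was called differentially expressed at a Benjamini-Hochberg FDR under 0.05 over all tested genes, from limma on log2(FPKM + 0.1), with an absolute log2 fold change (log2FC) above 0.58. Both comparisons have their own control group, NDWT or NDKO.

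Of the 10 members in WT livers, 2 were called higher and 4 lower. Over all tested genes, 44.1% were called higher in that comparison and 4.62% lower, so the 2 higher members were fewer than that share gives and the 4 lower members more. In TSP-1 null livers 1 member was called higher and 5 lower, where the shares over all tested genes were 41.9% and 4%. The members had a median log2FC of -0.22 (WT) and -0.59 (TSP-1 null), beside 0.53 and 0.50 over all tested genes. With the libraries scaled by median of ratios instead, the median over all tested genes was -0.01 in both, and log2FC relative to the median is given where it bears on a direction. The split of the members moved with that scaling, to 0 called higher and 6 lower in both genotypes, beside 22.7% and 15.4% of all tested genes for WT livers and 22.2% and 13.6% for null livers. The calls of Cyp7a1 (WT) and Fgfr4 (both) were lost with it, and Baat (both) and Cyp27a1 (WT) were called lower. The groups did not overlap for 5 members in WT and 7 in TSP-1 null livers, shares near the 56.2% and 57.8% of all tested genes.

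Cyp7b1 had the largest log2FC of the 10 members on the diet. Its levels were 90.2, 134.5, 102.8, 125.2 and 150.4 FPKM in the 5 NDWT livers (replicates 1 to 5) and 17.5, 14.2, 21.2, 19.5 and 15.5 in HFWT. In NDKO livers it stood at 93.0, 75.3, 101.1, 147 and 82.9, and in HFKO at 11.1, 18.3, 8.57, 9.32 and 9.93. Every CDAHFD liver thus lay below every control diet liver. The log2FC was -2.76 ± 0.20 (SE) in WT, a level of 0.148 of that on the control diet (FDR = 4.08e-10), and -3.13 ± 0.20 in TSP-1 null livers (FDR = 1.00e-10).

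Cyp8b1, which decides the share of cholic acid, fell on the diet in both genotypes. NDWT livers had 450.1, 301, 476, 569.7 and 492 FPKM, and HFWT livers had 52.4, 119.6, 106, 129 and 77.2. NDKO livers had 726, 697, 739, 772 and 630.2, and HFKO livers had 148, 201, 142, 191 and 159. The log2FC was -2.28 ± 0.20 in WT (FDR = 6.26e-09) and -2.09 ± 0.20 in TSP-1 null livers (FDR = 2.33e-08). The difference between these diet effects was 0.19 (95% interval -0.41 to 0.78, FDR = 0.818).

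Cyp8b1 was the only member called in all 4 comparisons, and the stretch of DNA just before its start is shown for that reason. In RefSeq on GRCm38.p6, the 250 bases before the start of Cyp8b1 are chr9:121916306-121916555 on the minus strand, next to a gene at chr9:121914356-121916305. Capitals mark a match to CAAAGTCCA, a form of the element bound by HNF4, and an overlapping match to CAAGGNCA, the form bound by NR5A receptors such as LRH-1 (Nr5a2):
Cyp8b1: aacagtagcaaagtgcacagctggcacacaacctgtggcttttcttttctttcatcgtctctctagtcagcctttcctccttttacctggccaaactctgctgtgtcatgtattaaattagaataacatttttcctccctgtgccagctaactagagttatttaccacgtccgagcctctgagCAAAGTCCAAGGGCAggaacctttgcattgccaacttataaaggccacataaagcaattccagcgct
The first match lies 67 to 59 bases before the start and the second 60 to 53, both on the strand of the gene, and they share 2 bases. On either strand, CAAAGTCCA was found in 0.384% of 32851 RefSeq promoter windows of the same length and CAAGGNCA in 5.53%. RefSeq windows were matched for 6 of the 10 members (Cyp8b1, Cyp27a1, Hsd3b7, Akr1d1, Fgfr4 and Klb), and Cyp8b1 was the 1 of these 6 with either motif. The half-site AGGTCA, shared by many nuclear receptors, was found in 14% of all windows and in that of Akr1d1. The D-box TTANGTAA, bound by DBP and its relatives, was in 2.06% of all windows and in 0 of the 6. These matches describe letters and not bound sites.

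Cyp7a1 varied more between livers of a group than the other members. Its levels in replicates 1 to 5 were 3.28, 7.59, 7.28, 8.22 and 24.1 FPKM in NDWT and 14, 36.7, 22.7, 37.8 and 21.7 in HFWT. NDKO livers had 34.7, 19.5, 22.4, 58.7 and 59.7, and HFKO livers had 24.7, 30.4, 18.6, 57.3 and 14.1. The SD within groups was 0.80 on the log2 scale, larger than for 93.6% of tested genes, beside 0.11 for Slc27a5 and a median of 0.22 over all tested genes. Counting error is small here, since Cyp7a1 had 319 to 5040 fragments per library.

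In WT livers Cyp7a1 rose 3.02-fold on the diet (log2FC = 1.60 ± 0.46, FDR = 0.00423). The groups overlapped, because NDWT replicate 5 exceeded 3 of the 5 HFWT livers, and without that liver the log2FC was 1.98. With the libraries scaled by median of ratios, it was 1.04 and the call was lost (FDR = 0.0634). In TSP-1 null livers the log2FC was -0.45 ± 0.46 (95% interval -1.41 to 0.52, FDR = 0.396). The difference between these diet effects, TSP-1 null less WT, was -2.04 ± 0.65, which did not pass the correction over all genes (FDR = 0.136 with limma, unadjusted p = 0.00538).

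Cyp27a1, the first enzyme of the alternative route, was called lower on the diet in TSP-1 null livers. NDKO livers had 252, 285, 223, 219 and 287 FPKM and HFKO livers 169, 149, 159, 184 and 128, without overlap (log2FC = -0.68 ± 0.12, FDR = 3.66e-05). In WT livers the values were 167, 204, 155, 209 and 178 on the control diet and 216, 166, 161, 159.6 and 149 on CDAHFD. These overlapped, with a log2FC of -0.11 ± 0.12 (95% interval -0.35 to 0.14, FDR = 0.424), although relative to the median of all tested genes it was -0.64. The difference between the diet effects was -0.58 ± 0.17 (unadjusted p = 0.00253, FDR = 0.0969). Of the 10 members, 0 were called for this difference with limma, beside 0.647% of all tested genes, and 2 (Cyp7a1 and Cyp27a1) had an unadjusted p under 0.05. For the other 8 it was 0.192 or higher.

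Slc27a5 and Baat, the enzymes that join bile acids to coenzyme A and to an amino acid, both had lower levels on CDAHFD in every liver of a genotype. Slc27a5 stood at 372 to 454 FPKM in NDWT and 194 to 209 in HFWT, and at 443 to 523 in NDKO and 182 to 240.4 in HFKO. Its log2FC was -1.02 ± 0.07 in WT (FDR = 4.98e-10) and -1.16 ± 0.07 in TSP-1 null livers (FDR = 1.13e-10). Baat ranged from 96.0 to 116 FPKM in NDWT and from 77.8 to 91.9 in HFWT, and from 99.4 to 132 in NDKO and 68.3 to 92.4 in HFKO. Its FDR was 0.00252 in WT and 8.10e-05 in TSP-1 null livers, but the log2FC, -0.34 and -0.49, stayed within the threshold of 0.58.

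The ring-modifying enzymes Hsd3b7 and Akr1d1 were not called on the diet. Hsd3b7 had group means of 74.4 to 84.8 FPKM, and its log2FC was 0.04 in WT (95% interval -0.21 to 0.28) and 0.03 in TSP-1 null livers (-0.22 to 0.27). Akr1d1 had group means of 30.3 to 37.7 FPKM, with a log2FC of 0.30 in WT (-0.09 to 0.70) and 0.01 in TSP-1 null livers (-0.39 to 0.41). With median of ratios scaling all 4 values were negative, from -0.26 to -0.53, so a direction cannot be given for either gene. The gene model that the table uses for Hsd3b7, chr7:127785608-127803802, is 6154 bases long. It overlaps the span of its neighbour Setd1a on the same strand, so the level of Hsd3b7 is uncertain. In GENCODE M21, that span belongs to Gm49388 and Hsd3b7 starts at chr7:127800604.

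The receptor and its co-receptor went opposite ways on the FPKM scale. Klb, beta-Klotho, had 11.4, 9.17, 11.3, 13.1 and 12.4 FPKM in NDWT livers and 5.21, 7.77, 5.44, 8.37 and 8.35 in HFWT. In NDKO livers it stood at 14.3, 15.5, 13, 14.4 and 16, and in HFKO at 8.46, 7.79, 7.51, 11.7 and 7.91. All CDAHFD livers were below all control diet livers of their genotype, with a log2FC of -0.72 ± 0.14 in WT (FDR = 0.000173) and -0.77 ± 0.14 in TSP-1 null livers (FDR = 9.21e-05).

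Fgfr4, the FGF15 receptor, had 11.5, 15.6, 12.4, 11.9 and 12.0 FPKM in NDWT and 25.4, 21.4, 18.8, 23.5 and 14.5 in HFWT livers, and 14.9, 13.4, 12.3, 9.84 and 14.3 in NDKO and 26, 21.9, 26.2, 24 and 23.2 in HFKO. HFWT replicate 5 lay below 1 NDWT liver, while all HFKO livers lay above all NDKO livers. The log2FC was 0.69 ± 0.13 in WT (FDR = 0.000127) and 0.91 ± 0.13 in TSP-1 null livers (FDR = 5.49e-06), but with median of ratios scaling it was 0.13 and 0.38 and both calls were lost. Relative to the median of all tested genes, Fgfr4 was 0.15 higher in WT and 0.41 higher in TSP-1 null livers.

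Ratios of 2 genes within a liver do not change when the library is scaled by 1 factor, as with median of ratios. Quantile normalization can change them. On the control diet, Fgfr4 over Klb was 1.14 ± 0.32 in WT and 0.886 ± 0.133 in null livers, and on CDAHFD 3.13 ± 1.16 and 2.87 ± 0.526. The lowest CDAHFD ratio, 1.74, was above the highest control diet ratio, 1.70. Cyp7a1 over Cyp7b1 was 0.0779 ± 0.0477 (NDWT), 0.395 ± 0.197 (NDKO), 1.56 ± 0.711 (HFWT) and 2.72 ± 1.94 (HFKO). Cyp7a1 exceeded Cyp7b1 in 9 of 10 CDAHFD livers and 0 of 10 control diet livers. Cyp8b1 over Cyp7a1 was 66.4 ± 44.3 on the control diet and 3.73 ± 0.559 on CDAHFD in WT livers, without overlap. In null livers it was 22.7 ± 11.4 and 6.97 ± 2.89, and the highest HFKO ratio, 11.3, exceeded the lowest NDKO ratio, 10.6.

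**Figure D2:**
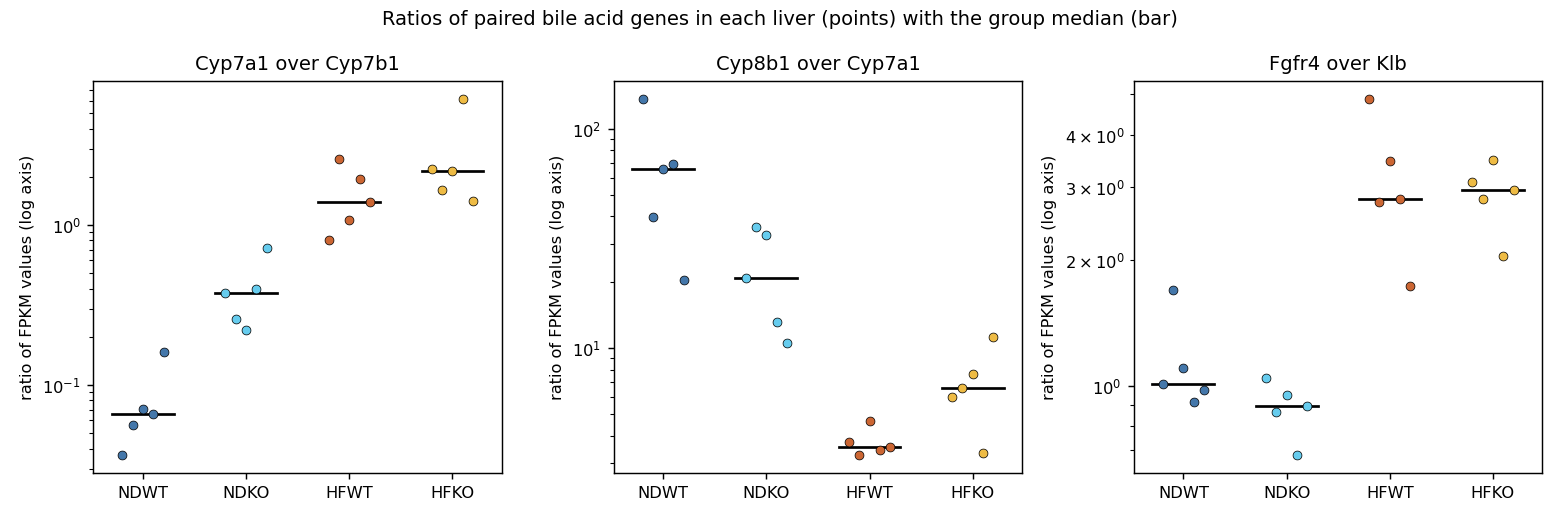
Ratio of 2 FPKM values in each liver (vertical axis, logarithmic) for Cyp7a1 over Cyp7b1, Cyp8b1 over Cyp7a1 and Fgfr4 over Klb in the 4 groups. Points are single livers and the bar is the group median. The median of Cyp7a1 over Cyp7b1 is 0.0657, 0.373, 1.40 and 2.17 from left to right, with no liver of either control diet group above 0.720.

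Whole liver RNA cannot tell fewer hepatocytes from less RNA per hepatocyte. Over all tested genes, 44.1% were called higher on the diet and 4.62% lower in WT, and 41.9% and 4% in null livers. Of 10 hepatocyte markers (such as Alb, Ttr and Cps1), 0 were called higher and 3 lower on the diet in WT, and 0 and 4 in null livers. Beside the -0.22 and -0.59 of the 10 members, the median log2FC of these markers was -0.33 and -0.44. Their summed FPKM was 36457 to 43795 in NDWT against 27266 to 39098 in HFWT, and 40578 to 47859 in NDKO against 35376 to 46813 in HFKO, and 0 of the 10 was at 0 throughout any group. Of 10 stellate cell and myofibroblast markers all 10 were called higher in both genotypes, with a summed FPKM of 53.0 to 67.0 in NDWT and 286 to 557.5 in HFWT, and 68.3 to 74.3 in NDKO and 292.5 to 403 in HFKO.

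Markers of most other cell types rose as well. Of 10 macrophage markers 7 were called higher and 2 lower in both genotypes, and their summed FPKM went from 184.5 to 246.6 in NDWT to 1050 to 1415 in HFWT, and from 181 to 301 in NDKO to 677 to 1465 in HFKO. All 6 tested cholangiocyte markers of 8 were called higher in both genotypes, with a summed FPKM of 20.6 to 24.4 in NDWT and 302 to 502 in HFWT, and 18.3 to 22.3 in NDKO and 192 to 374 in HFKO. Of 8 T and B cell markers 7 were called higher in both genotypes, as were both neutrophil markers tested of 6. Of 7 endothelial markers, 2 were called higher in WT (Lyve1 and Vwf) and 3 in TSP-1 null livers (also Pecam1). These endothelial counts stand beside 44.1% and 41.9% of all tested genes. The endothelial median log2FC was 0.06 and 0.33, below the 0.53 and 0.50 of all tested genes. Summed T and B cell markers were at most 6.24 FPKM in every control diet liver and 7.68 or more in every CDAHFD liver. The part of cell composition in the lower levels of Cyp7b1, Cyp8b1, Slc27a5 and Klb was not tested.

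The second question was how TSP-1 null livers differed from WT livers on each diet. As the null line was bought separately, loss of TSP-1 cannot be told apart from other differences between the lines. On the control diet Cyp7a1 and Cyp8b1 were called higher in TSP-1 null than in WT livers and 0 members were called lower, and on CDAHFD Cyp8b1 was called higher. Of all tested genes, 1.74% were called higher and 3.03% lower on the control diet, and 0.165% and 0.33% on CDAHFD, so 0 of 10 members lower is near the background. At an FDR under 0.05 with no fold threshold, 4 members passed on the control diet (Cyp7a1, Cyp8b1, Cyp27a1 and Slc27a5, all higher) and 1 on CDAHFD (Cyp8b1, higher). By that rule 3.47% of all tested genes were higher and 9.6% lower on the control diet, and 0.255% and 0.868% on CDAHFD. The groups did not overlap for 2 members on the control diet and 1 on CDAHFD, beside 9.03% and 4.98% of all tested genes.

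Cyp7a1 was 4.26-fold higher in NDKO than in NDWT livers (log2FC = 2.09 ± 0.46, FDR = 0.00578). Each NDKO liver exceeded 4 of the 5 NDWT livers, and the NDWT liver at 24.1 FPKM exceeded 2 NDKO livers. Without that liver the log2FC was 2.48, and over all alternatives tried it stayed between 1.77 and 2.48 with an FDR of at most 0.0326. On CDAHFD the log2FC was 0.05 (95% interval -0.91 to 1.01), so differences of up to about 2-fold in either direction lie within the interval.

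Cyp8b1 was 1.59-fold higher in NDKO than in NDWT livers (log2FC = 0.67 ± 0.20, FDR = 0.0341), and 1.81-fold higher in HFKO than in HFWT livers (log2FC = 0.85 ± 0.20, FDR = 0.0426). In both cases the lowest TSP-1 null liver was above the highest WT liver, at 630.2 against 569.7 FPKM on the control diet and 142 against 129 on CDAHFD. Both FDR values were close to the threshold. The first call was lost when any 1 of 7 livers was left out (NDWT replicates 1, 2 and 3 and NDKO replicates 1 to 4), with an FDR of up to 0.0881. The second was lost when only HFKO and HFWT were fitted (FDR = 0.113) and when any 1 of 15 livers was left out, with a log2FC between 0.65 and 0.97 under all alternatives.

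Cyp27a1 was also higher in every NDKO liver (219 to 287 FPKM) than in any NDWT liver (155 to 209). Its FDR was 0.0120, but the log2FC of 0.47 ± 0.12 lay under the fold threshold. On CDAHFD it was -0.11 (95% interval -0.35 to 0.14). Slc27a5 had a log2FC of 0.23 ± 0.07 on the control diet (FDR = 0.0483) and 0.09 on CDAHFD (-0.07 to 0.24).

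Cyp7b1 had the opposite sign. Its log2FC by genotype was -0.29 (95% interval -0.71 to 0.13) on the control diet and -0.66 ± 0.20 on CDAHFD, where it did not pass (FDR = 0.107). In HFKO, replicate 2 had 18.3 FPKM and the other 4 livers 8.57 to 11.1, all 4 below the HFWT livers at 14.2 to 21.2. Without HFKO replicate 2 the log2FC was -0.84 and the FDR 0.0333. Klb had a log2FC of 0.36 (0.06 to 0.66, FDR = 0.106) on the control diet and 0.31 (0.01 to 0.61, FDR = 0.275) on CDAHFD. For Hsd3b7, Akr1d1, Baat and Fgfr4 the FDR by genotype was 0.342 or higher on both diets.

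**Figure D3:**
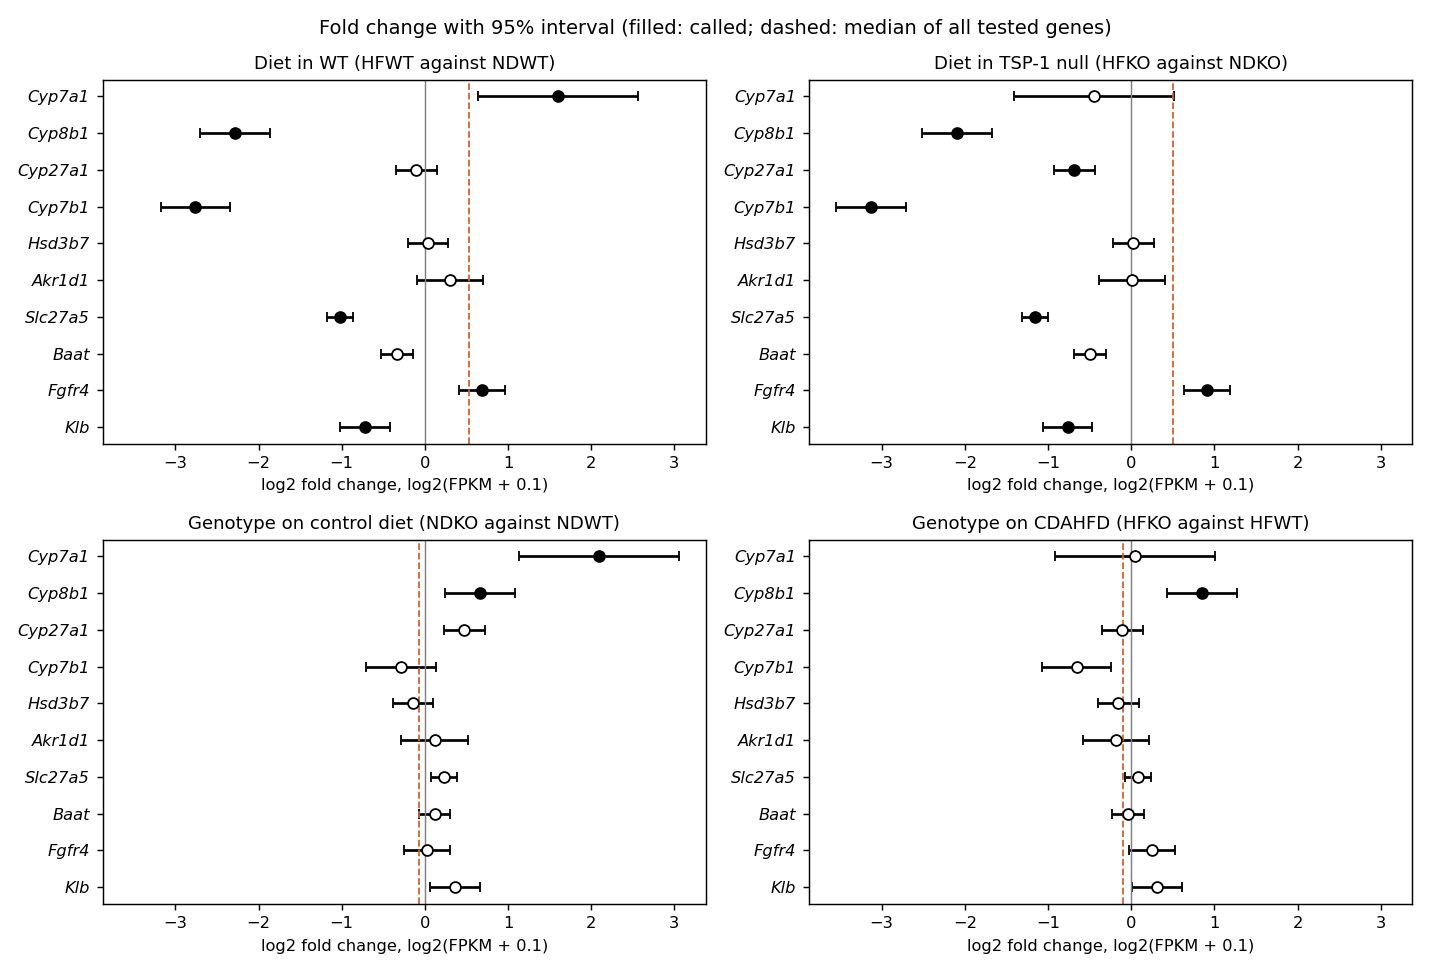
Log2FC on log2(FPKM + 0.1) of the 10 genes (horizontal axis) in the 4 comparisons, with 95% intervals from limma over 20 libraries. Filled points passed both thresholds, and the dashed line is the median of all tested genes, 0.53 and 0.50 for the diet and -0.07 and -0.10 for genotype. Cyp7a1 is to the right in WT on the diet and in TSP-1 null on the control diet, and the calls of Fgfr4 on the diet are lost with median of ratios scaling, where its log2FC is 0.13 and 0.38.

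Of the 10 hepatocyte markers, 1 was called higher by genotype on the control diet (Cps1) and 0 on CDAHFD, and their median log2FC was 0.13 and 0.21. Of the 10 markers each of macrophages and stellate cells, Trem2 was called higher and Acta2 lower on the control diet, and 0 of either list on CDAHFD. Of the cholangiocyte, endothelial, T and B cell and neutrophil markers, 0 were called by genotype on either diet. Over all tested genes, 1.74% were called higher and 3.03% lower on the control diet, and 0.165% and 0.33% on CDAHFD. Lists this short would thus hold few calls in any case, and 0 does not show equal composition. On CDAHFD the median log2FC of the 4 lists was -0.43, 0.14, -0.33 and -0.25, beside -0.10 over all tested genes. The part of cell composition in the genotype differences was not tested.

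The regulators of these genes were read next, from lists of sensors, FGF signal genes, transporters and clock genes. On the diet, 44.1% of all tested genes were called higher and 4.62% lower in WT, and 41.9% and 4% in null livers. By genotype these shares were 1.74% and 3.03% on the control diet, and 0.165% and 0.33% on CDAHFD. The counts below stand beside them. Nr0b2, encoding the repressor SHP, had 41.6, 41.5, 26.0, 37.9 and 31.2 FPKM in NDWT and 32.8, 12.2, 21.4, 6.19 and 25.7 in NDKO livers. In HFWT livers it stood at 77.7, 17.0, 35.2, 30.3 and 55.5, and in HFKO at 57.7, 45.6, 64.2, 28.1 and 43.0. It rose on the diet in TSP-1 null livers (log2FC = 1.44, FDR = 0.00336), whereas the log2FC was 0.11 in WT (FDR = 0.810). By genotype on the control diet it was -1.05 (FDR = 0.0918), and the difference between the diet effects was 1.33 (FDR = 0.267).

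Nr1h4, encoding the bile acid receptor FXR, was not called in any comparison. Its means were 50.6 ± 3.44, 42.6 ± 4.58, 42.0 ± 3.93 and 39.1 ± 5.28 FPKM in NDWT, NDKO, HFWT and HFKO. In WT livers every CDAHFD value of Nr1h4 lay below every control diet value. The log2FC there, -0.27 (FDR = 0.0128), stayed within the fold threshold. Nr5a2, encoding LRH-1, an activator of Cyp7a1 and Cyp8b1, lay between 10.8 and 12.0 FPKM on average in all 4 groups. Hnf4a, the hepatocyte nuclear factor that binds both promoters, was higher in NDKO (241 ± 42.0) than in NDWT livers (164 ± 22.8) at an FDR of 0.00337, with a log2FC of 0.55 that lay just under the fold threshold, and stood at 148 ± 12.4 in HFWT and 179 ± 13.6 in HFKO. Of the 19 sensors and transcription factors, 5 were called higher and 1 lower on the diet in WT, and 3 and 1 in null livers. The shares called higher were below the 44.1% and 41.9% of all tested genes. Relative to all tested genes, the median log2FC of the list was -0.50 in both genotypes. By genotype on the control diet, 1 was higher and 1 lower, and on CDAHFD 0 were called.

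The 2 called by genotype were Ppargc1a and Bhlhe40. Ppargc1a, a coactivator of fasting metabolism, went from 1.16 ± 0.504 FPKM in NDWT to 2.84 ± 0.680 in NDKO livers (log2FC = 1.28, FDR = 0.00219). Bhlhe40, a repressor that also belongs to the clock, went from 13.8 ± 3.69 in NDWT to 6.14 ± 1.23 in NDKO livers (log2FC = -1.14, FDR = 0.00028) and stood at 25.4 ± 2.99 in HFWT and 28.5 ± 4.00 in HFKO. Its diet effect differed between genotypes by 1.30 (FDR = 0.0146), the 1 gene of this list called for that difference. Ppara, the fatty acid receptor, was the 1 gene of the list called lower on the diet, by -1.22 (log2FC) in WT and -0.65 in null livers.

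Fgf15, made in the ileum, was listed at 0 in 19 of 20 libraries and at 1 fragment in the other. Of the 13 FGF signal genes tested of 15, 7 were called higher and 1 lower on the diet in WT, and 9 and 1 in null livers, with a median log2FC of 1.05 and 1.08, or 0.52 and 0.58 relative to all tested genes. The other FGF receptors were among them: Fgfr3 went from 3.75 ± 0.968 FPKM in NDWT to 20.8 ± 5.53 in HFWT livers, Fgfr2 from 5.83 ± 1.31 to 12.2 ± 2.37 and Fgfr1 from 0.877 ± 0.153 to 5.17 ± 1.31. Etv5, a target of FGF receptor signal, rose from 1.23 ± 0.175 to 3.78 ± 0.761. The 1 gene called lower was Fgf1, a growth factor, from 32.3 ± 4.15 to 11.9 ± 2.18 FPKM. By genotype on the control diet Fgfr1 was called higher and Spry4 and Dusp6, inhibitors of the signal, lower, and on CDAHFD Egr1 was called higher. Several of these genes are also expressed outside hepatocytes, and the stellate, macrophage and cholangiocyte markers rose in the same livers. The part of cell composition in the levels of these FGF signal genes was not tested.

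Other enzymes of bile acid synthesis were called in both directions on the diet. Of 14 tested of 15, 2 were called higher and 7 lower in WT, and 3 and 5 in null livers, and the median log2FC was -0.65 and -0.39. Over all tested genes, 44.1% were called higher and 4.62% lower in WT, and 41.9% and 4% in null livers. Scp2, Slc27a2 and Abcd3, which act in the peroxisomal shortening of the side chain, were called lower in both genotypes: Scp2 went from 1428 ± 51.4 FPKM in NDWT to 793 ± 51.6 in HFWT livers, Slc27a2 from 588 ± 34.1 to 231 ± 39.7 and Abcd3 from 226 ± 13.2 to 98.5 ± 15.5. Sult2a8, a bile acid sulfotransferase, fell from 287 ± 35.6 to 68.6 ± 9.13. Cyp39a1, an oxysterol hydroxylase like CYP7B1, rose instead, from 3.02 ± 0.347 in NDWT to 9.92 ± 0.560 in HFWT and from 4.91 ± 0.985 in NDKO to 16.3 ± 6.41 in HFKO livers, and it was also called higher by genotype on the control diet (log2FC = 0.67, FDR = 0.0229).

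Of 15 transporters tested of 16, 5 were called higher and 2 lower on the diet in WT, and 6 and 2 in null livers. The shares called higher were not above the 44.1% and 41.9% of all tested genes. Relative to all tested genes, the median log2FC of the list was -0.22 and -0.16. Slc10a1, the main importer of bile acids from blood, fell from 288.5 ± 14.6 to 117 ± 9.47 FPKM in WT (log2FC = -1.30, FDR = 1.03e-08) and from 245 ± 21.4 to 148 ± 35.4 in TSP-1 null livers (log2FC = -0.76, FDR = 1.27e-05). Abcb11, the canalicular export pump, had 74.8 ± 7.43 and 67.3 ± 7.13 FPKM on the control diet in WT and null livers. On CDAHFD it had 94.4 ± 25.1 and 95.9 ± 25.9, and it was not called. In null livers its log2FC on the diet, 0.47 (FDR = 0.0144), stayed within the fold threshold, and the groups overlapped. The exporter Abcc4 rose from 0.608 ± 0.113 to 2.39 ± 0.432 in WT livers. Slc10a2, an importer of bile duct cells and ileum, rose from 2.35 ± 0.778 to 7.30 ± 1.33 in WT livers and was lower in NDKO livers, at 1.09 ± 0.373 (log2FC = -1.04, FDR = 0.00393). Slco1a4 was the other transporter called by genotype on the control diet, as higher, and 0 were called on CDAHFD.

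Cyp7a1 follows a daily rhythm, and clock genes were therefore read beside it. Of 14, 1 was called higher and 1 lower by genotype on the control diet (Per1, log2FC = 1.13, FDR = 0.0107, and Per2, -0.77, FDR = 0.0345), and 0 on CDAHFD. Dbp, an activator of Cyp7a1 with a strong rhythm, had 18 ± 5.74 FPKM in NDWT and 11.1 ± 1.52 in NDKO livers, and 22.2 ± 12.6 and 31.7 ± 12.5 in the CDAHFD groups HFWT and HFKO, with an FDR by genotype of 0.247 and 0.370. Nr1d1 had means of 36.2 to 46.7 FPKM and was not called, and Nr1d2 was 14.6 ± 1.36 in NDWT and 10.7 ± 0.808 in NDKO livers (log2FC = -0.44, FDR = 0.0226). On the diet Dbp was called higher in null livers (log2FC = 1.415, FDR = 0.00116, without overlap), whereas in WT the log2FC was 0.16 (FDR = 0.678). The difference between these diet effects was 1.25 (FDR = 0.223). Of the 14 clock genes, 4 were called higher and 2 lower on the diet in WT, and 5 and 1 in null livers. The shares called higher were below the 44.1% and 41.9% of all tested genes. Relative to all tested genes, the median log2FC of the clock list was -0.24 and -0.08. The part of collection time in the levels of Cyp7a1 was not tested.

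Cyp7b1 is also known as a male-biased gene of the mouse liver. Of 12 other male-biased genes, 0 were called higher and 10 lower on the diet in WT, and 0 and 11 in null livers, with a median log2FC of -2.55 and -2.70. Of all tested genes, 44.1% were called higher and 4.62% lower on the diet in WT, and 41.9% and 4% in null livers. Elovl3 went from 198 ± 52.5 FPKM in NDWT to 13.4 ± 8.69 in HFWT livers, and Cyp4a12a from 114 ± 13.5 to 28.9 ± 12.4. By genotype, 3 of the 12 were called lower on the control diet and 2 on CDAHFD, beside 3.03% and 0.33% of all tested genes, and Cyp4a12a was among them on both (log2FC = -1.13, FDR = 0.00494, and -1.75, FDR = 0.000476). Of 13 female-biased genes 6 could be tested, and 3 were called higher and 2 lower on the diet in WT, and 3 and 3 in null livers. By genotype on the control diet, 3 of these 6 were called higher (Fmo2, Cyp17a1 and Cux2) and 0 lower, beside 1.74% and 3.03% of all tested genes. On CDAHFD 0 were called. Cyp2b9 went from 0.185 ± 0.148 to 8.17 ± 6.54 FPKM in WT livers, while Cyp17a1 went from 8.89 ± 5.14 to 1.28 ± 0.711.

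The genes most like 3 of the members over the 20 libraries were found by Pearson r on log2(FPKM + 0.1), as a description. For Cyp7b1 these were Sult2a8 (r = 0.986), Mup11 (0.986) and Mup1 (0.985), of which the Mup genes are near-identical copies whose reads may be divided uncertainly. For Cyp8b1 they were the gluconeogenic enzyme Fbp1 (0.988), the methionine adenosyltransferase Mat1a (0.965) and Brap (0.963). For Cyp7a1 the values were lower, with Bcat2 at 0.823, BC048644 at 0.815 and the sulfotransferase Sult1a1 at 0.784. For Cyp7b1 and Cyp8b1 the 20 points form 2 clusters by diet, so r is given as a description alone.

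The spread of Cyp7a1 and Cyp8b1 between livers of a group was set beside that of Nr0b2, Nr1h4, Nr5a2, Hnf4a, Dbp, Nr1d1 and Nr1d2, as deviations from the group means. These 14 relations were chosen after the values of the same 20 libraries were seen, so r and rho are a description and no p is given. For Cyp8b1 and Nr0b2, Pearson's r was -0.60 and Spearman's rho -0.65, with the sign negative in all 4 groups. Without the 2 libraries farthest out in Nr0b2 (HFWT replicate 2 and NDKO replicate 4), r was -0.62, and without HFWT replicate 1, which had the most Nr0b2 and the least Cyp8b1 of all livers, it was -0.50.

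For Cyp7a1 and Nr0b2, r was -0.42 and rho -0.35, also negative in all 4 groups, and r was -0.31 without those 2 libraries. The other 12 relations had an r between -0.47 (Cyp7a1 with Hnf4a) and 0.54 (Cyp7a1 with Nr1h4, rho = 0.42), and Cyp7a1 with Nr1d2 had an r of 0.50 (rho = 0.41). A shared sign in all 4 groups was not particular to Nr0b2. Cyp7a1 also kept 1 sign in all 4 groups with Hnf4a (negative), and with Dbp (r = 0.40) and Nr1d2 (both positive). Its r with Nr0b2 was -0.15 in NDKO livers.

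**Figure D4:**
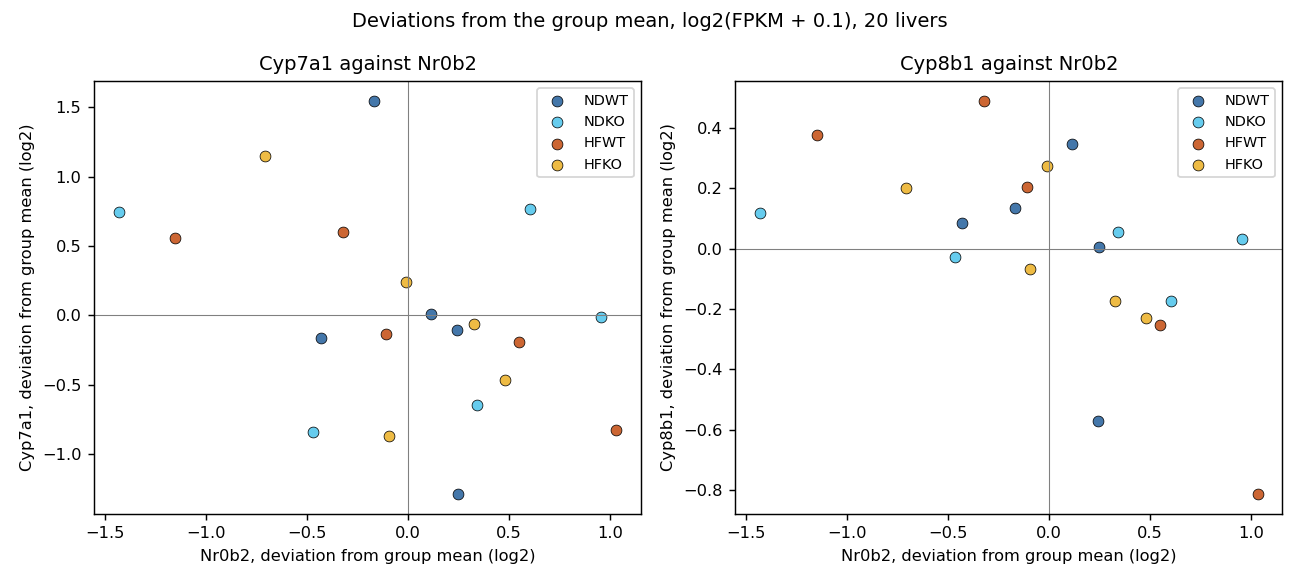
Deviation of Cyp7a1 (left) and Cyp8b1 (right) from the group mean against that of Nr0b2, all on log2(FPKM + 0.1), for 20 livers coloured by group. The points for Cyp8b1 run from upper left to lower right (r = -0.60), and the lowest point is HFWT replicate 1, while those for Cyp7a1 are more scattered (r = -0.42).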

How the data were processed

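RNA was measured in 20 mouse livers. Per the labels and the study's methods, the authors extracted RNA with Trizol, made directional poly(A) libraries, sequenced them as 2 × 150 base pairs and processed the reads with QuickRNASeq. The submitters' processing notes name STAR 2.5.2 and featureCounts of Subread 1.5.1. They also name the build GRCh38, but the coordinates in the table are those of mouse GRCm38. The deposited values are FPKM per gene, computed by the authors without further normalization between libraries, so a gain in some genes lowers the FPKM of others. Whether featureCounts used strand is not given in the sources used here. Files hold no molecular identifiers, so duplicates were not removed and counting error is the least error a value has.

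Each library's total was found as the number that turns FPKM times length into whole fragments, and 100% of the values checked came out whole within 0.05 fragments. These fragments gave the depth, the counting error and the comparison of replicates, and entered no test between groups. For the 40 pairs of replicate libraries, chi-square divided by its degrees of freedom ran from 12.2 to 88.6, so none was a copy of another. Replicates are separate mice.

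Limma 3.58.1 in R 4.3.3 was fitted with trend on log2(FPKM + 0.1) to all 20 libraries at once, with 1 mean per group and 16 residual degrees of freedom before moderation, for genes above 0.5 FPKM in at least 5 libraries. P-values are two-sided, with Benjamini-Hochberg adjustment over 14524 genes in each comparison. The difference between diet effects is HFKO less NDKO, less the same in WT. The fit was tested on simulated data. Fold changes on log2(FPKM + 0.1) understate those of low genes. Python 3.11.15 with scipy 1.17.1, numpy 2.4.6, pandas 2.3.3 and matplotlib 3.10.9 did the rest. Promoter windows came from RefSeq on GRCm38.p6.

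The members, the gene lists and the rule for named genes were chosen with earlier results of these data known. All members were named, with at most 6 called genes of each list by lowest FDR, a set of known regulators and transporters whatever their values, and the 3 genes most like each of 3 members. Symbols that the table spells otherwise were matched by gene ID for 4 genes (Adgre1, Ciart, Malrd1 and Sult2a8). Alternatives were another pseudocount, filter, scaling, threshold or fit, a replicate block, and each library left out.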

Additional observations from a re-analysis of the deposited data

Results flagged for a closer look

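In 6 of the 40 sets of 5 values (10 genes in 4 groups), 1 liver lay far from the other 4 by Dixon's criterion, where chance gives about 1 in 20, or 2 sets. Cyp7a1 in NDWT replicate 5 was 24.05 FPKM, above the other 4 at 3.28 to 8.22. Cyp27a1 in HFWT replicate 1 was 215.7 FPKM, above the others at 149 to 166. Cyp7b1 in HFKO replicate 2 was 18.3 FPKM, above the others at 8.57 to 11.1. Slc27a5 in HFWT replicate 3 was 194.4 FPKM, below the others at 205 to 209. Fgfr4 in NDWT replicate 2 was 15.56 FPKM, above the others at 11.5 to 12.4. Klb in HFKO replicate 4 was 11.71 FPKM, above the others at 7.51 to 8.46. The 6 values came from 6 different livers.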

How the results depend on the processing

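The numbers of members called on the diet, 6 in each genotype, stayed within 1.5 times under every alternative, but the split did not: from 2 higher and 4 lower for WT and 1 and 5 for null livers, it became 0 and 6 in both with median of ratios, and 1 and 4 and 0 and 5 with quantile normalization. By genotype on the control diet 2 members were called, 1 with no filter on low values, 1 with quantile normalization, 4 with FDR alone, and 1 to 2 when single libraries were left out. By genotype on CDAHFD 1 was called, 0 with no filter, 0 when only the groups compared were fitted, 0 with no trend, and 0 to 1 when single libraries were left out. For the difference between diet effects the count was 0 throughout.

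Scaling by median of ratios moved the median log2FC of all tested genes on the diet from 0.53 and 0.50 to -0.01 in both genotypes, and genes called higher from 6412 to 3299 and from 6088 to 3225. Genes called lower went from 671 to 2242 and from 581 to 1981. With quantile normalization 2514 were higher and 2562 lower in WT and 2421 and 2186 in null livers. With it Fgfr4 lost both diet calls (log2FC = 0.32 and 0.55). With median of ratios, Baat was called lower in both genotypes (-0.90 and -1.03) and Cyp27a1 in WT (-0.67). Cyp8b1 by genotype on the control diet was not called with no filter (FDR = 0.065) or quantile normalization (FDR = 0.083).

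Signs changed for values that were not called. With median of ratios, Hsd3b7 on the diet was -0.525 in WT and -0.508 in TSP-1 null livers, Akr1d1 -0.255 and -0.525, and Baat by genotype on CDAHFD 0.0634. With quantile normalization Hsd3b7 was -0.0261, Akr1d1 -0.237 (both in TSP-1 null livers) and Baat on CDAHFD 0.00327. With single libraries left out, Hsd3b7 on the diet ranged from -0.0303 to 0.113 in WT and -0.0254 to 0.117 in TSP-1 null livers, Akr1d1 from -0.132 to 0.178 in TSP-1 null livers and -0.0389 to 0.257 by genotype on the control diet, Fgfr4 there from -0.0296 to 0.119, and on CDAHFD Cyp7a1 from -0.24 to 0.264 and Baat from -0.0901 to 0.0184. The cause was not tested.

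With a replicate block 6, 6, 2, 1 and 0 members were called, as without it. Deviations of same-numbered libraries correlated at -0.133 to 0.0812 over 30 pairs (median 0.020, beside -0.0002 for pairs with different numbers). No pairing by number was seen, though a weak one could be missed.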
